A study of Mus musculus with 1646 samples.

Results

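The 9 genes described here encode potassium channel subunits of mural cells, the contractile and supporting cells that wrap blood vessels, compared here together with a cluster of mucosal smooth muscle that the study locates away from vessels. They are Kcnj8, Abcc9, Kcnab1, Kcnma1, Kcnmb1, Kcna5, Kcnk3, Kcne4 and Kcnq5, taken by name from the 46517 genes of a read count table of the mouse colon. Each of the 9 names matched 1 row of the table. The table holds 1646 single cells, sequenced over the full length of their transcripts with the SmartSeq2 protocol. Cells came from adult male mice aged 10 to 20 weeks of 4 reporter strains: PdgfrbGFP (761 cells on 4 plates), Acta2GFP (567 cells), Cspg4dsRED (91 cells) and PdgfraGFP (the rest). In each strain a fluorescent protein is driven by the regulatory sequence of the named gene, and sorted cells were negative for the endothelial protein CD31. Elastase was added to the digestion of Acta2GFP colons alone, and combinations of the strains were among the mice the study sorted. No mouse was treated.

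The labels place each cell in 1 of 8 clusters drawn by the study. The methods call clusters 1, 2, 5, 6 and 7 fibroblasts. The remaining clusters 3 (8.57% of cells), 4 (8.63%) and 8 (56 cells, 3.40%) are the mural cells, and they were named here from marker genes that leave the 9 members out. All 7 pericyte markers were highest in cluster 4, among them Rgs5 with a mean of 3262 counts per 500000 counts of a cell, the unit of every level below. Of the 7 vascular smooth muscle cell (SMC) markers, Lmod1, Mustn1 and Pln were highest in cluster 3, Pln at 549 against 6.47 in cluster 4 and 2.55 in cluster 8. The other 4 (Myh11, Acta2, Tagln and Cnn1) were highest in cluster 8, and the sum of the list was also higher there (10011) than in cluster 3 (8569). Of the 6 interstitial SMC markers 5 were highest in cluster 8, among them Hhip at 1339 against 0.921 in cluster 3 and Actg2 at 1667, and Des was highest in cluster 3. Cluster 3 is called vascular SMC and cluster 8 interstitial SMC below (the mucosal smooth muscle, grouped with the mural cells in the comparison with fibroblasts), which rests on Pln and on Hhip, Rgs10 and Actg2 rather than on the contractile genes that both clusters share. The 10 endothelial genes fixed as markers summed to 583 in pericytes, 379.9 in vascular SMC and 161.1 in interstitial SMC. In pericytes Esam, a gene also active in mural cells, made up 496, Tie1 39.05 and Egfl7 13.49, while Cdh5 stood at 0.687 and Pecam1 at 9.46. Fibroblast markers summed to 1858 in pericytes, 593 in vascular SMC and 2006 in interstitial SMC, against 5787 to 11609 in the fibroblast clusters, and their part in the results below was not tested.

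Potassium channels let potassium leave the cell and so pull the membrane of a mural cell towards a negative voltage. This closes voltage-gated calcium channels and relaxes the cell, so these channels set vessel tone. ATP-sensitive channels join a pore encoded by Kcnj8 with a sulfonylurea receptor encoded by Abcc9, and open when cellular ATP falls or when vasodilators act. Large-conductance calcium-activated channels join the pore Kcnma1 with the accessory subunit Kcnmb1, voltage-gated channels join pores such as Kcna5 with accessory subunits such as Kcnab1, and Kcnk3 encodes an acid-sensitive leak channel. Kcne4 encodes a small accessory protein that dampens voltage-gated channels, and Kcnq5 a slowly activating voltage-gated pore.

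In the GENCODE annotation of GRCm38, Kcnj8 (ENSMUSG00000030247) spans chromosome 6 from 142564837 to 142571614 and Abcc9 (ENSMUSG00000030249) spans chromosome 6 from 142587862 to 142702315. Both lie on the minus strand with 16247 bases between them. Kcna5 spans 126532551 to 126535412 on the same chromosome. Kcnab1 spans chromosome 3 from 65109384 to 65378223, Kcnma1 chromosome 14 from 23289431 to 24014491, and Kcnmb1 chromosome 11 from 33963013 to 33973641. Kcnk3 spans chromosome 5 from 30588170 to 30625271, Kcne4 chromosome 1 from 78816758 to 78820028, and Kcnq5 chromosome 1 from 21398403 to 21961942. Exons of Abcc9, Kcnab1, Kcnma1, Kcnk3 and Kcnq5 overlap a gene on the opposite strand, by up to 1016 bases in Kcnma1, and no source used here says that reads were assigned by strand, so reads of these stretches cannot be told apart.

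Promoters are shown for the adjacent pair that was highest in pericytes, Kcnj8 and Abcc9, and for 2 members highest in vascular SMC, Kcna5 and Kcnmb1. Each window runs from 250 bases before to 50 bases after a RefSeq gene start of GRCm38.p6, and 8 of the 9 members had a window in the table. Capitals mark CANNTG (the E-box, the letters bound by many helix-loop-helix factors) and TGGGAA on either strand, which reads TTCCCA on the minus strand and holds the letters bound by the Notch effector RBPJ. The windows are chr6:142571565-142571864 (minus strand) for Kcnj8, chr6:142702225-142702524 (minus strand) for Abcc9, chr6:126535506-126535805 (minus strand) for Kcna5 and chr11:33962763-33963062 (plus strand) for Kcnmb1.
Kcnj8: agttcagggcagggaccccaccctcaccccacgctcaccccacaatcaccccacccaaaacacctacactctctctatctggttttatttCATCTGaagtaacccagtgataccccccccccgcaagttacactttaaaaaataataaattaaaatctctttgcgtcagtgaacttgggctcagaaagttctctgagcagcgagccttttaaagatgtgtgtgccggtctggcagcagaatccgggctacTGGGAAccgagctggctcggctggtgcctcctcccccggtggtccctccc
Abcc9: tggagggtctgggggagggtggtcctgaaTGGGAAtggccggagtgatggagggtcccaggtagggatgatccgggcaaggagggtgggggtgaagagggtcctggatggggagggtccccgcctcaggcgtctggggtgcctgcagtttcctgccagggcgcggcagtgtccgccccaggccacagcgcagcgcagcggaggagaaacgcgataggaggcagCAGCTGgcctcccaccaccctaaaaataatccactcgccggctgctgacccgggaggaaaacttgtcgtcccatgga
Kcna5: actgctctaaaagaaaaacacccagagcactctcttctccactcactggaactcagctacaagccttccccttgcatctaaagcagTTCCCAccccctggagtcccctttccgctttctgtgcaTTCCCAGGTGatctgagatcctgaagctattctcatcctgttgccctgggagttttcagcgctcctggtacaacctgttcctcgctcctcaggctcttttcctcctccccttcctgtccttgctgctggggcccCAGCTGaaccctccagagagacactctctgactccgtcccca
Kcnmb1: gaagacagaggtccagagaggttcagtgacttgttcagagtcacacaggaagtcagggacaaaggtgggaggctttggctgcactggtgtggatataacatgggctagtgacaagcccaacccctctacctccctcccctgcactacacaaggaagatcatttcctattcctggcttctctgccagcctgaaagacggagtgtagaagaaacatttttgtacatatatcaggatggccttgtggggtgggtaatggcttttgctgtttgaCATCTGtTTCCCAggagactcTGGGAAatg
In Kcna5 1 CANNTG match overlaps 1 TTCCCA match. CANNTG occurred in 72.3% and TGGGAA in 25.6% of all 32851 windows of the table, so neither is particular to these genes. GATAAG (7.44% of windows) was found only in 1 of 3 windows of Kcnab1, and TATAAA (13.6%) only in another of the 3. The CArG box, the site of serum response factor in many smooth muscle genes, was in 1.63% of all windows and in none of the 11 windows of members.

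**Figure D1:**
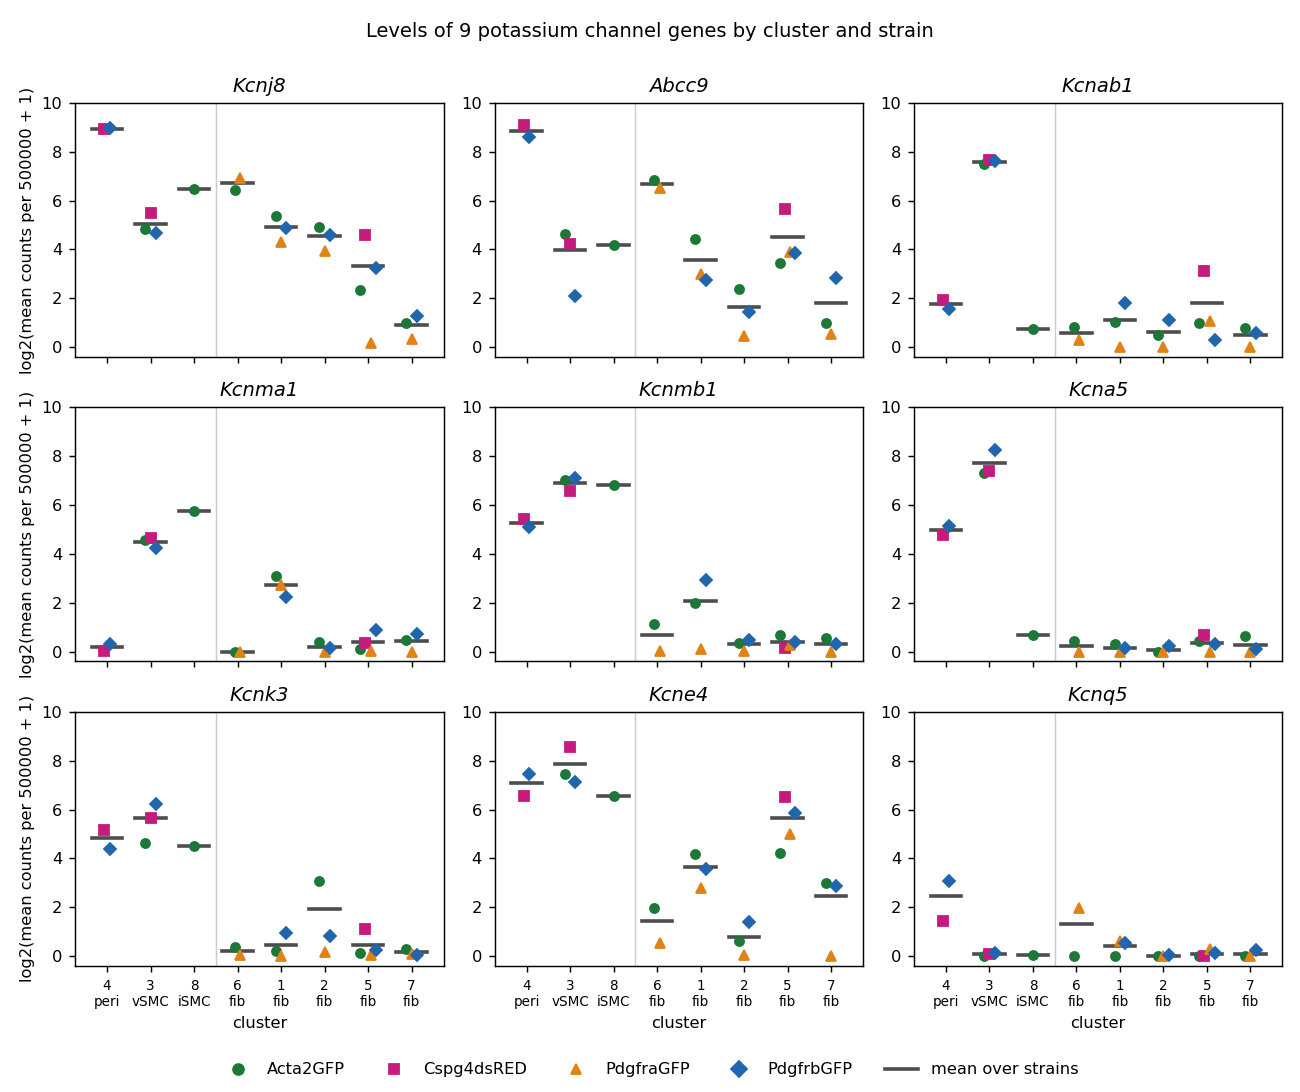
Mean level of each of the 9 genes in each cluster on the scale log2(mean counts per 500000 + 1), with clusters on the horizontal axis (4 pericytes, 3 vascular SMC, 8 interstitial SMC, then the fibroblast clusters). Each point is 1 strain with at least 10 cells of the cluster and each bar the mean over strains. Kcnj8 and Abcc9 peak in cluster 4, Kcnab1 and Kcna5 in cluster 3, and Kcnma1 in cluster 8.

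Mural cells were first compared with fibroblasts, to ask which members set the classes apart. Of the 9 members, 8 were higher in mural cells and none was lower, while 3.36% of the 19173 genes tested were higher in mural cells and 3.21% higher in fibroblasts. The members and the gene lists below were chosen with earlier results of these data known. Counts of them are therefore a description and no independent evidence. All cells of a class in 1 strain were added up to 1 sample, which gave 3 mural and 4 fibroblast samples. These samples were compared by the quasi-likelihood method of edgeR, with p-values adjusted after Benjamini and Hochberg over all genes and a threshold of 0.05. The labels name no mouse, so the p-values measure the spread between strains, and the study drew its clusters from these same counts.

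Kcna5 differed most. It stood at 54.8, 93.3 and 148.8 in the mural cells of Acta2GFP, Cspg4dsRED and PdgfrbGFP, and between 0 and 0.343 in the fibroblasts of the 4 strains. The groups did not overlap, and the difference was 9.65 ± 1.12 on the log2 scale (SE; adjusted p = 0.00152). Kcnk3 was at 21.9, 41.5 and 42.9 in mural cells and at most 0.811 in fibroblasts, a log2 difference of 6.96 ± 0.94 (adjusted p = 0.00299). Kcnmb1 was at 66.8 to 114.1 in mural cells and at most 2.95 in fibroblasts (6.48 ± 1.05, adjusted p = 0.00656). Kcnab1 was at 63.4 to 96.4 against at most 4.01 (5.85 ± 1.15, adjusted p = 0.0157).

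For the ATP-sensitive channel the strains differed more. Kcnj8 was at 68.9 in the mural cells of Acta2GFP, 274.8 in those of Cspg4dsRED and 283.5 in those of PdgfrbGFP, against 10.7 to 22.96 in fibroblasts (3.36 ± 0.47, adjusted p = 0.00320). Abcc9 was at 26.1, 293.7 and 211.96 against 10.99 to 28.6 (3.78 ± 0.65, adjusted p = 0.00864), so its lowest mural sample lay inside the range of the fibroblasts. Pericytes, where both genes were highest, made up 3 of the 84 mural cells of Acta2GFP, of which 52 were interstitial SMC, against 33 of 63 in Cspg4dsRED. With strain as a block, Abcc9 was at an adjusted p of 0.0655 and Kcnma1 at 0.0871.

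Kcnma1 was at 11.1 to 40.8 in mural cells against 0.138 to 2.89 in fibroblasts (3.96 ± 0.74, adjusted p = 0.0129). Kcne4 was at 117.9 to 226.5 against 10.5 to 42.7 (3.09 ± 0.59, adjusted p = 0.0134). Kcnq5 was at most 4.10 in mural cells and 7.49 in fibroblasts and did not pass the test (-0.91 ± 1.99, adjusted p = 0.883). Without the PdgfrbGFP strain only Kcna5 and Kcnmb1 stayed past the threshold, without Acta2GFP 5 of the 8 did, and without Cspg4dsRED Abcc9 did not (adjusted p = 0.0525).

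**Figure D2:**
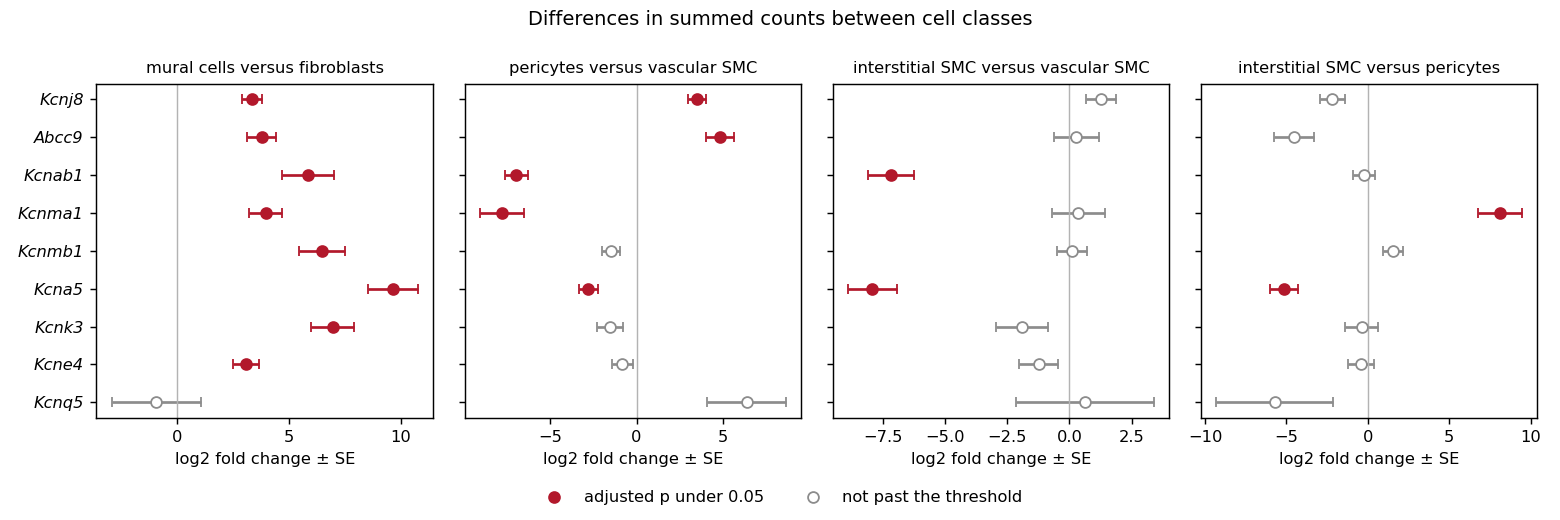
Log2 fold change of each of the 9 genes (points, with SE as bars) in 4 comparisons of summed counts, where positive values are higher in the class named first and filled points have an adjusted p under 0.05. Past the threshold are 8 genes for mural cells against fibroblasts, 5 for pericytes against vascular SMC, and 2 in each comparison of interstitial SMC. The horizontal axes differ between panels.

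Within the mural cells, the members split between pericytes and vascular SMC. Kcnj8 and Abcc9 were higher in pericytes, Kcnab1, Kcnma1 and Kcna5 were higher in vascular SMC, and 4 members did not pass the test. Of the 16328 genes tested, 0.263% were higher in pericytes and 0.404% higher in vascular SMC. The fit held 2 pericyte samples (Cspg4dsRED with 33 cells, PdgfrbGFP with more than 100), 3 of vascular SMC (Acta2GFP with 29, Cspg4dsRED with 30, PdgfrbGFP with 82) and 1 of interstitial SMC.

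Kcnj8, the pore of the ATP-sensitive channel, stood at 484 and 494 in the pericytes of Cspg4dsRED and PdgfrbGFP. In vascular SMC it was at 27.8 in Acta2GFP, 44.5 in Cspg4dsRED and 24.3 in PdgfrbGFP. Each pericyte sample lay far above every vascular SMC sample, and the log2 difference was 3.46 ± 0.52 (adjusted p = 0.0127). Abcc9, its receptor subunit, was at 545 and 382.95 in pericytes and at 23.5, 17.7 and 3.24 in vascular SMC (4.81 ± 0.78, adjusted p = 0.0197). Per kilobase of exon, Kcnj8 averaged 192.01 and Abcc9 55.4 in pericytes.

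The order of both classes held on every plate with at least 10 cells of a class. In pericytes Kcnj8 was at 484 on the only Cspg4dsRED plate and at 490 and 525 on the PdgfrbGFP plates with 60.3% and 77.6% mural cells, and Abcc9 at 545, 275.9 and 430.4 on the same 3 plates. In vascular SMC Kcnj8 ran from 0.497 to 44.5 and Abcc9 from 1.56 to 24.3 over 5 plates, so no plate of vascular SMC reached a plate of pericytes. Single pericytes varied widely around these means: 79 (55.6%) held Kcnj8 at a level of at least 100 and 84 (59.2%) held Abcc9 at that level, and the 15 highest of the pericytes held 41.9% of all Kcnj8 and 42.2% of all Abcc9. The highest single pericyte reached 3242 for Kcnj8. The 3 pericytes of Acta2GFP and the 2 of PdgfraGFP were too few for a sample, and both PdgfraGFP cells held neither gene.

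Co-detection was then counted cell by cell, since the channel needs both proteins. At least 1 count of both genes was found in 76.1% of pericytes (95% Clopper-Pearson interval 68.2 to 82.8). Singly, Kcnj8 was found in 83.1% and Abcc9 in 85.9% of pericytes, so most would hold both even if the genes were unrelated. Kcnj8 alone was found in 10 pericytes, Abcc9 alone in 14 and neither in 10. Among pericytes with Kcnj8, 91.5% also held Abcc9, against 58.3% of the 24 pericytes without it. Intervals cover counting error over cells only, and treat cells that share strains and plates as independent.

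The share depended on depth and on the minimum count. Thinned to 50000 counts per cell, 85 of 140 pericytes (60.7%) held both, at a minimum of 5 counts 52.1% did and at more than 20 counts 46.5%. By strain, 28 of 33 pericytes of Cspg4dsRED (84.8%) and 79 of those of PdgfrbGFP (75.96%) held both. Levels of the pair rose and fell together only loosely among pericytes, with a Spearman rho of 0.45 over cells that share plates and differ in depth. Both were at 100 or more in 63 pericytes, Kcnj8 alone in 16 and Abcc9 alone in 21.

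In the other mural clusters the pair was sparse. Both were found in 60 vascular SMC (42.6%), but in only 7.86% after thinning, and only 2 cells held both at 100 or more. Among interstitial SMC, 10 of 56 (17.9%) held both, 11 Kcnj8 alone and 8 Abcc9 alone. Of the 12 interstitial SMC with Kcnj8 at 100 or more, 3 held Abcc9 at that level. Kcnj8 stood at 86.8 in the interstitial SMC sample and Abcc9 at 17.2.

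**Figure D3:**
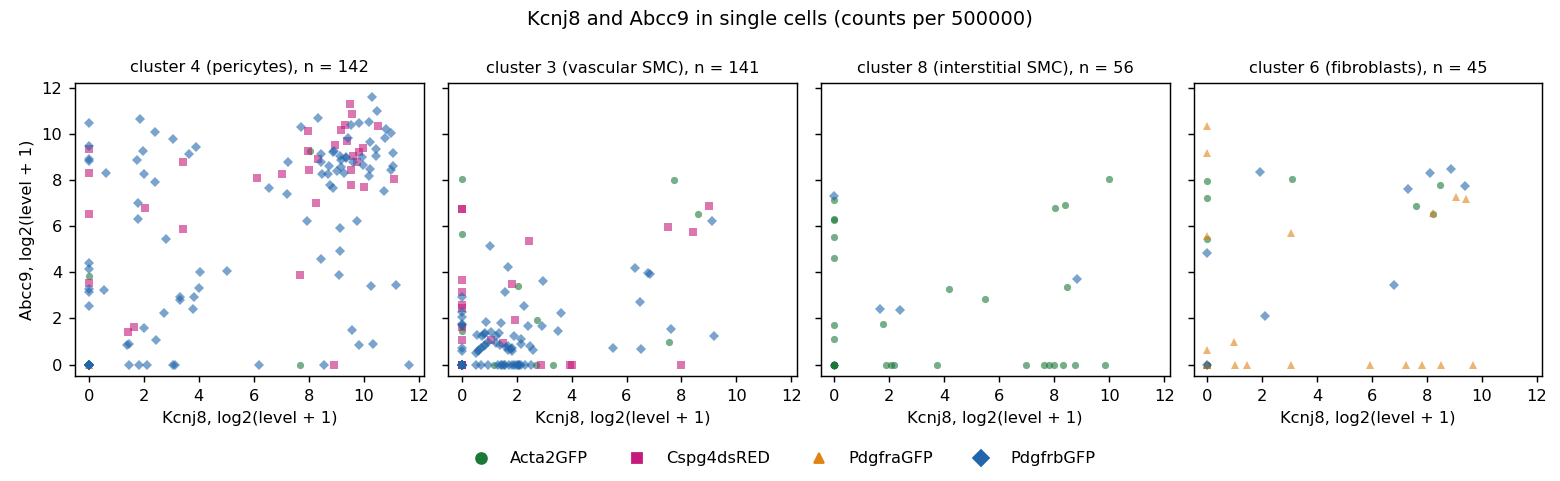
Level of Kcnj8 (horizontal) and Abcc9 (vertical) in single cells of clusters 4, 3, 8 and 6, on the scale log2(counts per 500000 + 1), with 1 point per cell coloured by strain. In cluster 4 the 63 cells with both genes at 100 or more form the group at upper right, which holds 2 cells in cluster 3, 3 in cluster 8 and 8 in cluster 6. Cells on an axis lack the other gene.

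The other receptor subunit of ATP-sensitive channels was found in vascular SMC. Abcc8, which encodes the second sulfonylurea receptor, was at 27.6, 101.6 and 20.3 in the vascular SMC of Acta2GFP, Cspg4dsRED and PdgfrbGFP, and at most 0.265 in every other cluster's strain samples. It was detected in 36 vascular SMC (25.5%, interval 18.6 to 33.6) and in 2 pericytes (1.41%). Per kilobase of exon it averaged 6.16 in vascular SMC, where Abcc9 averaged 1.77. Of its 36 cells, 18 also held Kcnj8 and 23 also held Abcc9. Among all vascular SMC, 60.28% held Kcnj8 and 56.03% held Abcc9. Kcnj8 was thus less frequent, and Abcc9 more frequent, in cells with Abcc8 than in vascular SMC as a whole. These differences were not tested, and the counts do not show a pairing of Abcc8 with Kcnj8. Its difference between pericytes and vascular SMC did not pass the test with edgeR (-9.69 ± 2.12 on the log2 scale, adjusted p = 0.0733) and passed with DESeq2 (adjusted p = 3.41e-07), and Kcnj11, the other pore of ATP-sensitive channels, was found in 4 vascular SMC.

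The voltage-gated pair Kcna5 and Kcnab1 marked vascular SMC. Kcna5 stood at 157.6, 166.5 and 301.1 in the vascular SMC of Acta2GFP, Cspg4dsRED and PdgfrbGFP, against 26.8 and 34.4 in pericytes (-2.77 ± 0.53 for pericytes against vascular SMC, adjusted p = 0.0387). Kcnab1 was at 182.3, 199.4 and 196.8 against 2.83 and 1.95 (-6.94 ± 0.66, adjusted p = 0.000883), and its 3 vascular SMC samples averaged 192.8 ± 9.23 (SD, n = 3). By plate, Kcna5 ranged from 153.5 to 350.8 and Kcnab1 from 152.9 to 241.5 in vascular SMC.

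Both genes of this pair were found together in 72.3% of vascular SMC (interval 64.2 to 79.5), Kcna5 alone in 13 cells, Kcnab1 alone in 15 and neither in 11. Singly, Kcna5 was found in 81.56% and Kcnab1 in 82.98% of vascular SMC, so most would hold both even if the genes were unrelated. Levels of the pair were only weakly related among vascular SMC, with a Spearman rho of 0.118. After thinning the share with both was 61.4%. At a level of at least 100, 60 cells held both, 29 Kcna5 alone and 26 Kcnab1 alone. In pericytes the 2 parted: 10 cells (7.04%) held Kcna5 at 100 or more and none held Kcnab1 at that level, which allows a share of up to 2.56%. Those few cells made the pericyte mean of Kcna5, since the 15 highest cells held 94.5% of it.

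For the calcium-activated channel, the pore differed between the classes and the accessory subunit did not pass the test. Kcnmb1 was at 128.8, 93.7 and 136.9 in vascular SMC, 42.3 and 32.9 in pericytes and 112.6 in interstitial SMC. Its difference between pericytes and vascular SMC was -1.47 ± 0.50 (adjusted p = 0.295), although both pericyte samples lay below the 3 vascular SMC samples. Kcnma1 was at 22.7, 23.9 and 17.9 in vascular SMC, where it was detected in 34 cells (24.1%), and in pericytes its levels were 0.0319 and 0.243 (-7.77 ± 1.28, adjusted p = 0.0197). Per kilobase of exon in vascular SMC, Kcnmb1 averaged 28.6 and Kcnma1 1.26.

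Fewer cells held a count of the pore than of its subunit. Of the 34 vascular SMC with Kcnma1, 29 held Kcnmb1, while 75 held Kcnmb1 alone. In interstitial SMC 13 of 56 cells (23.2%) held both, 24 Kcnmb1 alone and 7 Kcnma1 alone. In pericytes 64 cells (45.1%) held Kcnmb1 and 8 held both (5.63%, interval 2.46 to 10.8), and no thinned pericyte did.

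The calls between pericytes and vascular SMC depended on the samples fitted. When all 8 clusters were fitted together with edgeR none of the members passed the threshold, 6 of the 9 had an unadjusted p under 0.05, and 0.819% of the genes tested passed. On the samples of the mural classes alone DESeq2 called 6 members. The log2 differences of the 5 members in the joint fit ranged from -7.78 to 4.76. With plates as samples and strain as a block in edgeR, chosen after seeing the data, Kcnj8 (adjusted p = 0.117) and Kcnma1 (0.0717) lost their calls. Without Acta2GFP, Kcnma1 (adjusted p = 0.118) and Kcna5 (0.0743) lost their call, Kcna5 lost it without PdgfrbGFP (0.213), and with at least 3 cells per sum Kcnj8 (0.0992) and Kcna5 (0.184) did.

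Interstitial SMC, which were sampled almost only in Acta2GFP (52 of 56 cells), held Kcnmb1 at a level inside the range of the vascular SMC samples and almost none of the voltage-gated pair. Kcna5 was at 0.591 and Kcnab1 at 0.693 in interstitial SMC, against 157.6 and 182.3 in the vascular SMC of the same strain. The log2 differences over all samples were -7.91 ± 0.98 for Kcna5 (adjusted p = 0.00374) and -7.15 ± 0.93 for Kcnab1 (adjusted p = 0.00423). With all 8 clusters fitted together both calls were lost (adjusted p = 0.156 for Kcna5 and 0.389 for Kcnab1). These were 2 of 9 members, while 0.398% of genes tested were higher in interstitial SMC and 0.643% higher in vascular SMC. The lone interstitial SMC sample is assumed to vary as the other classes do.

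Against pericytes, Kcnma1 was higher in interstitial SMC (8.13 ± 1.36, adjusted p = 0.0234) and Kcna5 lower (-5.14 ± 0.87, adjusted p = 0.0234). Among all genes tested 0.165% were higher in interstitial SMC and 0.435% higher in pericytes. With all 8 clusters fitted together both calls were lost (adjusted p = 0.187 for Kcnma1 and 0.542 for Kcna5), and with at least 3 cells per sum that of Kcna5 was (0.0977). With strain as a block neither call held (adjusted p = 0.466 for Kcnma1 and 0.0969 for Kcna5) and Abcc9 passed at -6.56 (adjusted p = 0.0251), and since no strain held a sample of both classes, the blocked comparison runs through the vascular SMC, which were sampled in all 3 strains. Kcnma1 had a mean of 53.3 in the interstitial SMC of Acta2GFP, but it stood at 68.7 over 40 cells of 1 plate and at 1.68 over 12 cells of the other. The 4 interstitial SMC of PdgfrbGFP, on 3 further plates, held it at a mean of 106.4 over 2 cells and at 226.4 and 176.1 in 1 cell each, which averages 153.8 against 0.243 in the pericytes of that strain. It was at 100 or more in 13 of the 56 cells.

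Kcnk3, the leak channel, was at 23.6, 48.9 and 74.4 in vascular SMC, 34.8 and 19.7 in pericytes and 22.1 in interstitial SMC. The samples of pericytes and vascular SMC overlapped, the interstitial SMC sample lay below all 3 of vascular SMC, and none of the differences passed edgeR's test (adjusted p = 0.502 for pericytes against vascular SMC and 0.677 for interstitial against vascular SMC). In pericytes the 15 highest cells held 97.2% of all Kcnk3 and only 8 cells (5.63%) reached 100, whereas 32 vascular SMC (22.7%) did. Kcne4, the accessory subunit, was at 175.9, 372.2 and 138.7 in vascular SMC, 93.9 and 174.4 in pericytes and 92.4 in interstitial SMC, again with overlap of the first 2 classes and no call.

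Kcnq5 was hardly detected. It had 769 reads in 54 cells of the whole table, and in pericytes 9 cells held it (6.34%), with levels of 1.71 in Cspg4dsRED and 7.41 in PdgfrbGFP. In the other mural clusters 4 vascular SMC and 1 interstitial SMC held a count. Its log2 difference of 6.35 ± 2.27 between pericytes and vascular SMC did not pass edgeR's test (adjusted p = 0.327) and passed DESeq2's (adjusted p = 0.0304). Ordered by level, cluster 4 stood first for Kcnj8, Abcc9 and Kcnq5, cluster 8 for Kcnma1 and cluster 3 for the other 5 members, and clusters 3 and 8 did not differ beyond the spread of vascular SMC for Kcnmb1. Kcnmb1 was highest in cluster 8 after thinning, with samples of at least 3 cells or without PdgfrbGFP, Kcne4 was highest in cluster 4 without Cspg4dsRED, and without Acta2GFP, when cluster 8 had no sample, Kcnma1 was highest in cluster 3.

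Outside the mural cells, the ATP-sensitive pair was highest in fibroblast cluster 6. Kcnj8 was at 85.1 in its Acta2GFP cells (10 cells) and at 121.04 in its PdgfraGFP cells (26 cells), and Abcc9 at 112.7 and 90.05. In the other fibroblast clusters Kcnj8 ranged from 0.143 to 39.9 and Abcc9 from 0.376 to 50.1 over strains, below both samples of cluster 6. A few cells carried the means of cluster 6: in PdgfraGFP the median was 0.493 for Kcnj8 and 0 for Abcc9, and 2 cells, at 569 and 1282, held most of its Abcc9. Differences among the 5 fibroblast clusters passed the test for Kcnj8 (adjusted p = 0.00699) and Abcc9 (adjusted p = 0.0262), 2 of 9 members, while 9.31% of the 18924 genes tested did. Both calls were lost without Acta2GFP (adjusted p of 0.274 and 0.406), when cluster 6 kept 1 sample, Kcnj8's was lost without PdgfrbGFP (0.0993) and Abcc9's without PdgfraGFP (0.0659).

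Of the 45 cells of cluster 6, 16 held both genes, 8 Kcnj8 alone, 8 Abcc9 alone and 13 neither. Both were at 100 or more in 8 cells. Kcnj8 was present on both PdgfraGFP plates, at 146.9 over 14 cells and 90.9 over 12 cells, and each of those plates held 1 mural cell. Abcc9 differed between them, at 160.4 and 7.94. Cells of cluster 6 held almost none of the other mural members: Kcna5 averaged 0.173, Kcnab1 0.488, Kcnmb1 0.614 and Kcnk3 0.173. Acta2 stood at 909 and Pdgfra at 607 in this cluster, whose level of Cspg4 was 17.7 against 524 in pericytes.

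Some other fibroblasts held single members. Kcne4 was at 17.6, 89.9, 30.6 and 57.1 in cluster 5 of Acta2GFP, Cspg4dsRED, PdgfraGFP and PdgfrbGFP, where 46 cells reached 100, and differences among fibroblast clusters had an adjusted p of 0.0602. Kcnma1 averaged 5.68 ± 1.93 (SD, n = 3) in cluster 1, with 10 cells at 100 or more. Kcnj8 was lowest in cluster 7, at 0.895 ± 0.586 (SD, n = 3), where no cell reached 100.

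Shares of fibroblasts with any count must be read against depth and plate. Kcna5 was found in 0% of fibroblasts on both PdgfraGFP plates, where mural cells made up 0.645% and 1.39% of cells, and in 53.8% of the 26 fibroblasts of the PdgfrbGFP plate where they made up 77.6% and fibroblasts had a median of 1068290 counts. Thinned to 50000 counts, the shares for Kcna5 ran from 0% to 7.69% over the 9 plates. Its mean level in fibroblasts never exceeded 0.871 on any plate. Kcnj8 ran from 14.3% to 67.6% of fibroblasts over plates, and from 7.79% to 31.7% after thinning. Its highest share, both as deposited and thinned, was on a PdgfrbGFP plate with 3.10% mural cells, while Kcna5 on the Cspg4dsRED plate with 69.2% mural cells was found in only 3.57% of fibroblasts. The part of depth or of free RNA in these low counts was not tested.

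**Figure D4:**
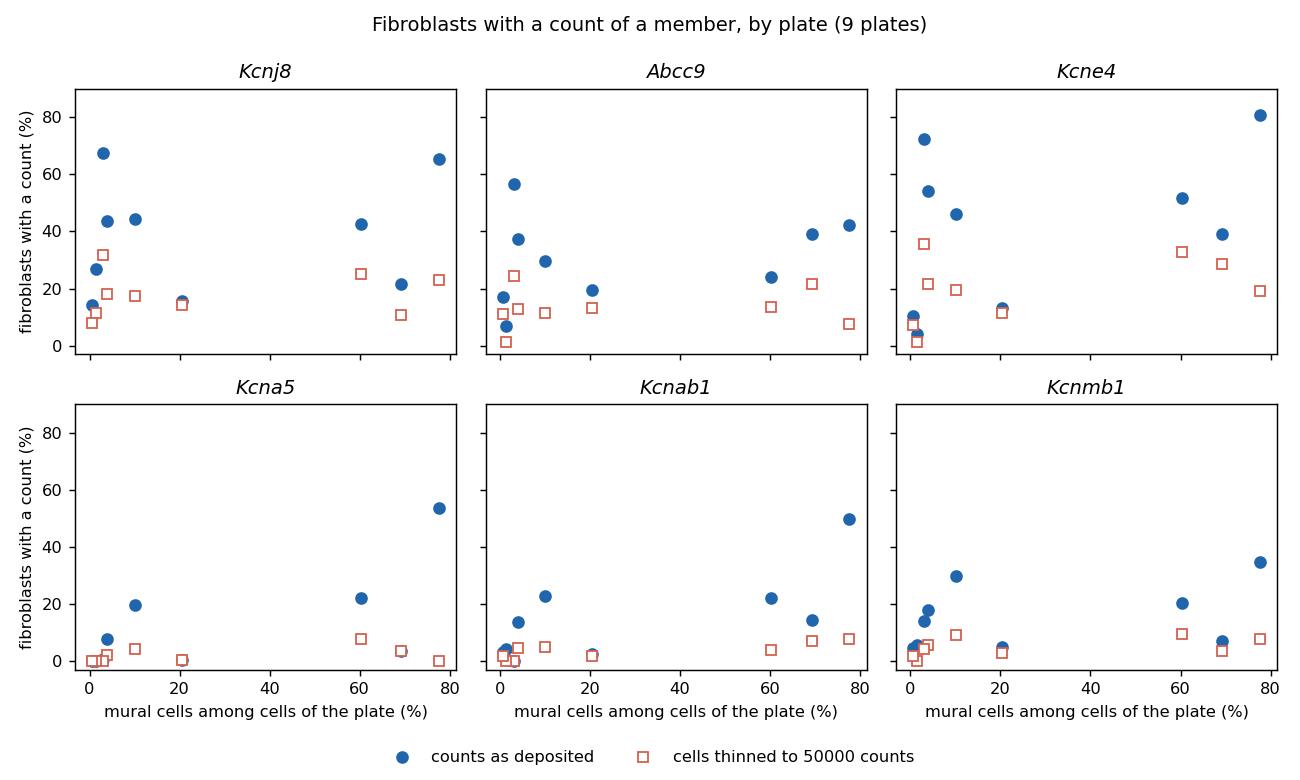
Share of fibroblasts with at least 1 count of a gene (vertical, percent) on each of the 9 plates against the share of mural cells among the plate's cells (horizontal, percent), for 6 of the genes. Circles give counts as deposited and squares cells thinned to 50000 counts. For Kcna5 the share as deposited reaches 53.8% on the plate with 77.6% mural cells, and no thinned share exceeds 7.69%.

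The other potassium channel genes were read from all genes named Kcn plus Abcc8, 92 genes beside the members, of which 37 were abundant enough to test in mural cells against fibroblasts. Of these 37, 6 were higher in mural cells (3.36% of all genes) and 2 higher in fibroblasts (3.21%), with a median log2 difference of -0.48 against 0.03 over all genes. Those higher in mural cells included Abcc8 (10.92 ± 1.66), the calcium-activated channel Kcnn2 (8.21 ± 1.49), the sodium-activated channel Kcnt1 (9.13 ± 1.67), the voltage-gated pore Kcna2 (5.89 ± 1.12), and Kcnh2 (4.04 ± 0.65), the pore of the rapid delayed rectifier. Higher in fibroblasts were the stretch-sensitive leak channel Kcnk2 (-5.18 ± 1.03) and the calcium-activated Kcnn3 (-2.40 ± 0.40).

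Kcnh2 averaged 39.9 in vascular SMC and 66.6 in interstitial SMC against 7.84 in pericytes, and Kcna2 11.9 in vascular SMC against 0.329 in pericytes. None of the 31 others tested passed the threshold in edgeR's fit between pericytes and vascular SMC, where 8 had an unadjusted p under 0.05 and DESeq2 called 7. Nor did any for interstitial SMC against vascular SMC (6 at an unadjusted p under 0.05, 5 with DESeq2) or against pericytes (5 and 4). Among fibroblast clusters 4 of 34 tested passed (Kcnk2, Kcns3, Kcnt2 and Kcnab2), a share near the 9.31% of all genes, with Kcns3 at 85.8 in cluster 2 and Kcnk2 at 49.98 in cluster 5.

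**Figure D5:**
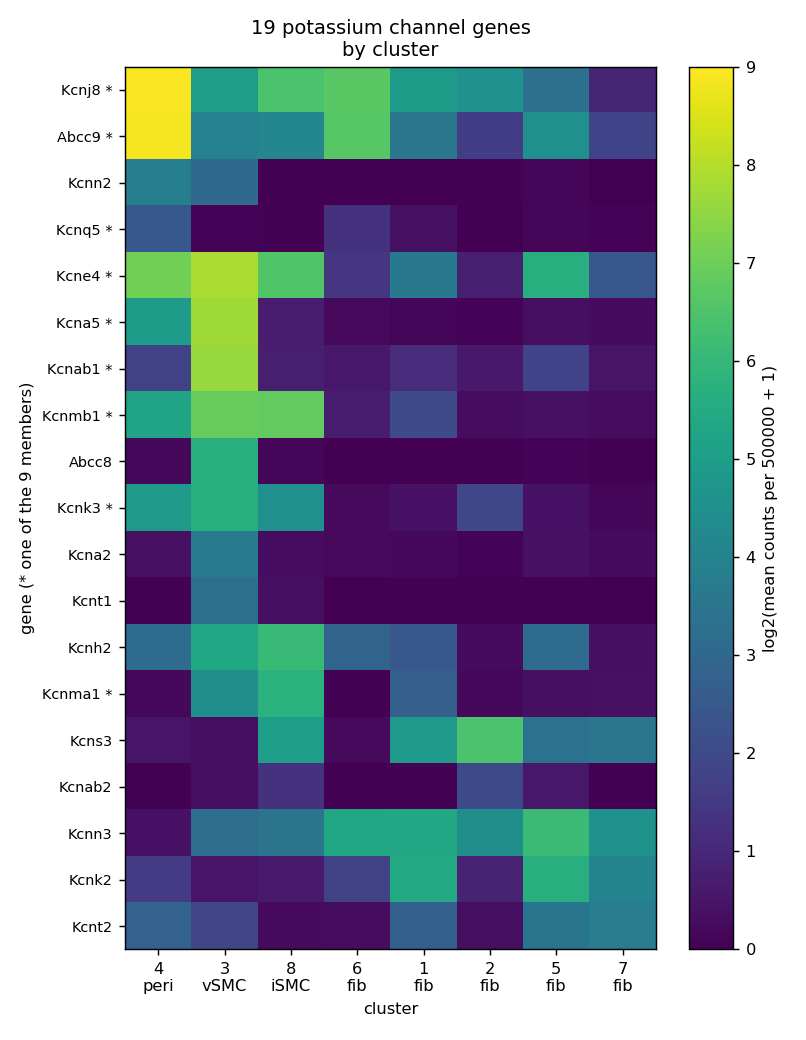
Mean level over strains of 19 potassium channel genes, the 9 members (starred) and 10 others named in the text, as log2(mean counts per 500000 + 1) by colour, with genes in rows and clusters in columns. Rows are ordered by the cluster with the highest level, which puts Kcnj8 and Abcc9 with pericytes and Abcc8, Kcna2 and Kcnt1 with vascular SMC.

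Of 14 genes fixed as partners in membrane potential and calcium entry, 8 were higher in mural cells than in fibroblasts and none lower, beside 3.36% of all genes higher in mural cells and 3.21% higher in fibroblasts. They included the gap junction genes Gja4 and Gjc1, the pore of the L-type calcium channel Cacna1c, the chloride channel Ano1, the cation channel Trpc6, the calcium release channel Itpr1 and the chloride importer Slc12a2. Cacna1c was at 59.6 in vascular SMC and 59.9 in pericytes, and Ano1 at 283.6 and 294.96. None of the 14 differed between pericytes and vascular SMC past the threshold of edgeR's test, 5 had an unadjusted p under 0.05 and DESeq2 called 3 (median log2 difference -0.66 against -0.03 over all genes). Among fibroblast clusters 3 of 13 tested passed, which were Gja1, a further gap junction gene, Ano1 and Trpc6, beside 9.31% of all genes.

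The partners also differed for interstitial SMC. Gja4 was at 275.99 in vascular SMC, 304.5 in pericytes and 0.653 in interstitial SMC (-8.04 ± 0.84 against both, adjusted p of 0.00247 and 0.00170). Cacna1h, the pore of a T-type calcium channel, was at 64.02 in vascular SMC and 75.4 in interstitial SMC against 4.23 in pericytes, without a call.

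Of 12 receptors and kinases that act upstream of these channels, Prkg1, the kinase activated by cyclic GMP, was higher in mural cells (4.97 ± 0.82, adjusted p = 0.00711) and the prostaglandin receptor Ptger4 higher in fibroblasts (-1.51 ± 0.35, adjusted p = 0.0338), beside 3.36% and 3.21% of all genes in these directions. Ptgir, the prostacyclin receptor, was lower in interstitial SMC than in vascular SMC (adjusted p = 0.0156) and pericytes (adjusted p = 0.0233). It had 3 reads in interstitial SMC, and the ratio of vascular SMC to it was 229.7 with a counting interval of 78.6 to 1114, which treats reads without molecular identifiers as independent molecules. Calcrl, which with Ramp1 forms the receptor for calcitonin gene-related peptide, was at 115.99 and 106.8 in vascular SMC and pericytes, and Ramp1 at 80.9 and 8.07. Between pericytes and vascular SMC none of the 12 passed edgeR's test, 4 had an unadjusted p under 0.05 and DESeq2 called 4. Among fibroblast clusters 4 of the 12 passed, beside 9.31% of all genes, which were Calcrl, Ramp1, Ptgir and Vipr2, a receptor for vasoactive intestinal peptide.

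The genes whose pattern was most like each member's were found over 21 samples of a cluster and a strain, by Pearson's r of log2(mean level + 1) among 12572 genes. The samples share strains and plates, so r is a description. Kcnj8 was closest to Ednra (r = 0.87), the endothelin receptor, then Adap2, and Abcc9 to Ankrd44 (0.80), Usp6nl and Pde8b. With a pseudocount of 10 each became the other's closest gene (0.86). Kcnab1 was closest to Cd163 (0.98), Susd5 and Sctr, and Kcna5 to Tesc (1.00 at 2 decimals), Gm44596 and Hey2, a target of Notch signalling.

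Kcnmb1 was closest to Lmod1 (0.97), a smooth muscle leiomodin, then Pcp4l1 and the glucose transporter Slc2a4. Kcnk3 was closest to Akap6 (0.97), Lmod1 and Cacna1c, and Kcnma1 to Stard10 (0.92), Myocd, which encodes a coactivator of smooth muscle genes, and Cdh6. Kcne4 was closest to Aoc3 (0.89), Rgs5 and Tmem136. Kcnq5, whose own level never reached the minimum of 10 set for the compared genes, was closest to 4930518I15Rik (0.90), Mpeg1 and Clstn2. With a pseudocount of 10 the closest gene became Susd5 for Kcnab1, Cdh6 for Kcnma1, Pcp4l1 for Kcnk3 and Mpeg1 for Kcnq5, and stayed the same for Kcnmb1, Kcna5 and Kcne4. Among the members, r was highest for Kcnmb1 with Kcnk3 (0.92), followed by Kcna5 with Kcnab1 (0.89), Kcnk3 (0.87) and Kcnmb1 (0.85). The other pairs of channel partners did not stand above such pairs, at 0.75 for Kcnma1 with Kcnmb1 and 0.74 for Kcnj8 with Abcc9.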

How the data were processed

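Raw counts of 1646 colon cells were used, each cell being 1 sample labelled with its strain, plate and cluster. The authors trimmed adapters, mapped reads to GRCm38 (mm10) with TopHat2 and assigned them to genes with featureCounts. They removed cells with few counts, with few or very many genes and, if necessary, with many ERCC spike-in or mitochondrial reads. Cells expressing neither Pdgfra nor Pdgfrb were removed too, as were cells clearly contaminated with, for example, endothelial or immune transcripts. They deposited whole-number counts. The 46517 gene rows were used, and 92 ERCC spike-in rows, which took 1.36% of counts, were left out. Symbols (46005 genes) and positions came from GENCODE vM21, and promoters from RefSeq.

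Counts per cell ran from 47598 to 1494292 (median 248628). Levels are mean counts per 500000 over cells, then over strains with at least 10 cells of a cluster. Sums of counts per strain and class were filtered (filterByExpr), scaled (TMM) and tested with edgeR 4.0.16 (quasi-likelihood, threshold 0.05). Standard errors are the log2 fold change over the square root of F. Cells were thinned to 50000 counts, leaving out 11 shallower ones. The fits were tested on simulated data with known changes, where the share of false calls exceeded the threshold in the 3 comparisons between mural clusters and stayed under it in the other comparisons, and fewer changes were recovered for interstitial SMC. Doublets were not called.

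The members and lists were chosen with earlier results of these data known. Named beside members were up to 6 other potassium channel genes per direction past the threshold by size of change, the 3 genes most like each member, and the partner and upstream genes past the threshold or at a level of at least 100 in a mural cluster. Kcnj11, Cacna1h, the single-cell counts of Abcc8 and the fibroblast and sort markers of cluster 6 were added after their values were seen. A few genes that the rule names are not reported here. Sums of a strain share its plates: the deviations of the mural and the fibroblast sum from their class means correlated at 0.144, 0.173 and 0.185 in the 3 shared strains, so the blocked value is given where it changes a call. Alternatives were DESeq2 1.42.0, no filter, a block, plates as samples, other cell minimums, library size alone, all clusters together and leaving out each strain.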

Additional observations from a re-analysis of the deposited data

Results flagged for a closer look

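In groups of 4 to 9 samples, the gap of the farthest sample to its nearest neighbour was compared with Dixon's 95% critical value. Of 36 groups, 9 passed, where chance flags about 1 in 20, and the groups share cells. In cluster 5 the Cspg4dsRED strain, with 13 cells, stood apart for Abcc9 at 50.1 (9.93 to 13.8 in the other strains), for Kcnab1 at 7.60 (0.211 to 1.10) and for Kcnk3 at 1.13 (0.0278 to 0.174). In fibroblasts by plate, the PdgfrbGFP plate with 60.3% mural cells stood apart for Kcnab1 at 9.68 (at most 4.01 elsewhere) and Kcnmb1 at 6.76 (at most 2.92), and the Acta2GFP plate with 20.5% mural cells for Kcnk3 at 1.74 (at most 0.844). Kcnq5 stood apart in the fibroblasts of Cspg4dsRED, all on 1 plate, at 7.49 by strain and by plate (at most 0.560 and 0.806 elsewhere), where 2 of 28 cells held it. In vascular SMC, Kcnq5 stood apart at 0.255 on the PdgfrbGFP plate with 60.3% mural cells (at most 0.0695 elsewhere).

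Directions differed between strains for 2 members, and these differences were not tested. On levels with a pseudocount of 1, the log2 ratio of mural cells to fibroblasts for Kcnq5 was close to 0 in Acta2GFP (0.039), negative in Cspg4dsRED (-2.14) and positive in PdgfrbGFP (2.03). The log2 ratio of pericytes to vascular SMC for Kcne4 was -1.98 in Cspg4dsRED and 0.33 in PdgfrbGFP.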

How the results depend on the processing

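No call of a member changed direction under any alternative run. All 9 members had their highest level in a mural cluster as reported, thinned and with any strain left out, 7 with the median over cells (Kcnma1 and Kcnq5 had medians of 0) and 8 with at least 3 cells per sample (Kcnq5 was then highest in cluster 7). Within the mural clusters the order changed for Kcnmb1 (cluster 8 first when thinned, with at least 3 cells or without PdgfrbGFP), Kcne4 (cluster 4 first without Cspg4dsRED) and Kcnma1 (cluster 3 first without Acta2GFP, which holds the sample of cluster 8). Members called for mural cells against fibroblasts numbered 8, and 2 to 8 with a strain left out (lowest without PdgfrbGFP, 5 without Acta2GFP). With the replicate block 6 were called. For pericytes against vascular SMC they numbered 5, 3 with at least 3 cells per sum, 0 with all clusters together (edgeR, with 6 at an unadjusted p under 0.05; DESeq2 on the reported samples called 6), and 3 to 5 with a strain left out. For interstitial SMC they numbered 2 against vascular SMC (0 with all clusters together, where 2 were at an unadjusted p under 0.05, and 2 with DESeq2) and 2 against pericytes (1 with the replicate block or with at least 3 cells, 0 with all clusters together, where 3 were at an unadjusted p under 0.05, and 3 with DESeq2 or with a strain left out). Among fibroblast clusters they numbered 2, 5 with DESeq2, 7 with plates as samples, 5 with all clusters together and 0 to 2 with a strain left out, with 0 without Acta2GFP (2 at an unadjusted p under 0.05). With plates as samples and strain as a replicate block, chosen after seeing the data, 3, 1 and 4 were called for pericytes against vascular SMC, interstitial SMC against pericytes and fibroblast clusters. The block changed no other count of members by over 1.5 times.

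The share of tested genes that edgeR called was 6.57%, 0.668%, 1.04%, 0.600% and 9.31% in these 5 comparisons in the order given above, and DESeq2 called 15.6%, 5.92%, 5.87%, 4.45% and 19.6%. Plates as samples gave 16.1%, 2.18%, 3.49%, 1.66% and 18.7%, and with the strain block 14.4%, 1.498%, 0.412% (interstitial SMC against pericytes) and 14.99% (fibroblast clusters). The replicate block alone gave 3.08%, 1.04% for pericytes against vascular SMC and 0.349% for interstitial SMC against pericytes. Without a filter the 3 mural comparisons gave 1.85%, 1.84% and 1.35%. With all clusters together pericytes against vascular SMC gave 0.819% and interstitial SMC against pericytes 0.189%, and with at least 3 cells the latter gave 1.28%. With a strain left out the shares ran from 1.81% to 5.81%, 0.2997% to 2.44%, 2.55% to 4.23%, 2.13% to 2.68% and 1.56% to 9.89%. The share of pericytes with both Kcnj8 and Abcc9 was 76.1%, 60.7% thinned, 52.1% at 5 counts and 46.5% at more than 20 counts. The causes of these changes were not tested, other than that fewer cells or samples entered some fits.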
